A study of Mus musculus with 6 samples.

Results

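The 9 genes described here encode the receptor through which the adrenal cortex senses ACTH, its accessory protein, the subunits of the kinase that acts below it, and an anchoring protein of that kinase. They were taken by name from the platform's annotation, and all 9 were measured, each by 1 probe set, among 19505 named genes. Entire adrenal glands of 6 female mice, 2 months old, each gave RNA for 1 array. Control mice (n = 3) had the genotype Mst1flox/flox;Mst2flox/flox, and mutant mice (n = 3) had Mst1flox/flox;Mst2flox/flox;Nr5a1-cre. The 2 targeted genes, Stk4 (MST1) and Stk3 (MST2), encode kinases at the head of the Hippo pathway, which holds back the coactivators YAP and TAZ. Nr5a1-Cre acts in steroid-producing cells, and whole glands also hold chromaffin, vascular and connective tissue cells. Controls carried no Cre, so an effect of the Cre transgene and one of kinase loss cannot be told apart.

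ACTH from the pituitary binds the melanocortin 2 receptor on cortical cells, and this receptor reaches the cell surface only with its accessory protein MRAP. The occupied receptor stimulates adenylyl cyclase through a stimulatory G protein, and cyclic AMP then binds the regulatory subunits of protein kinase A (PKA). The catalytic subunits are thereby released and drive cholesterol delivery and the transcription of steroidogenic genes. A-kinase anchoring proteins hold the regulatory subunits at particular places in the cell.

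Median log2 signals of the 6 arrays lay between 6.76 and 6.83, and the correlation of 2 arrays across probe sets was 0.991 to 0.993 for animals of the same group and 0.988 to 0.992 otherwise. Markers of steroid-producing cortex were bright in every animal, with list means of 18.08 to 18.28, as the labelled tissue would have. Stk4 measured 8.32, 8.66 and 8.94 in the control animals and 8.14, 8.36 and 8.46 in the mutant animals (limma adjusted p = 0.623), with overlap. No source used here says whether its probes lie in the deleted exons. No probe set was named Stk3 in the annotation used, so these values do not check the genotypes.

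The clearest difference among the 9 genes was in the anchoring protein gene Sphkap, whose log2 signal averaged 7.46 ± 0.067 in controls and 6.12 ± 0.32 in mutants (SD, n = 3 each). It just missed the threshold (limma adjusted p = 0.0529). The receptor gene Mc2r differed by 0.05 log2 units, whereas the signals of Mrap, the catalytic subunit Prkaca and the regulatory subunit Prkar2a were lower in all 3 mutants than in all 3 controls, by 0.34, 0.19 and 0.28 log2 units (mutant minus control -0.34, -0.19 and -0.28). In all, 7 of the 9 were lower on average and 2 higher, beside 52.0% of all probe sets that were lower on average. The median change was -0.19, against -0.01 over all 22206 probe sets. Of the 9 genes, 0 passed an adjusted p of 0.05 in limma. Over all probe sets 16 passed, or 0.0721%, of which 12 were higher and 4 lower (0.018% of all), and with every array shifted to a common median 32 passed, 20 higher and 12 lower. At an unadjusted p under 0.05, 2 of the 9 genes were lower (Sphkap and Mrap) and 0 higher, beside 10.4% of all probe sets in either direction and 4.96% that were lower. The groups did not overlap for 4 of the 9, all lower in mutants, beside 16.4% of all probe sets in either direction and 8.36% that were lower. With quantile normalization 3 of the 9 were apart, since Prkaca then overlapped. In whole glands, fewer cells of a type and less RNA per cell cannot be told apart.

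**Figure D1:**
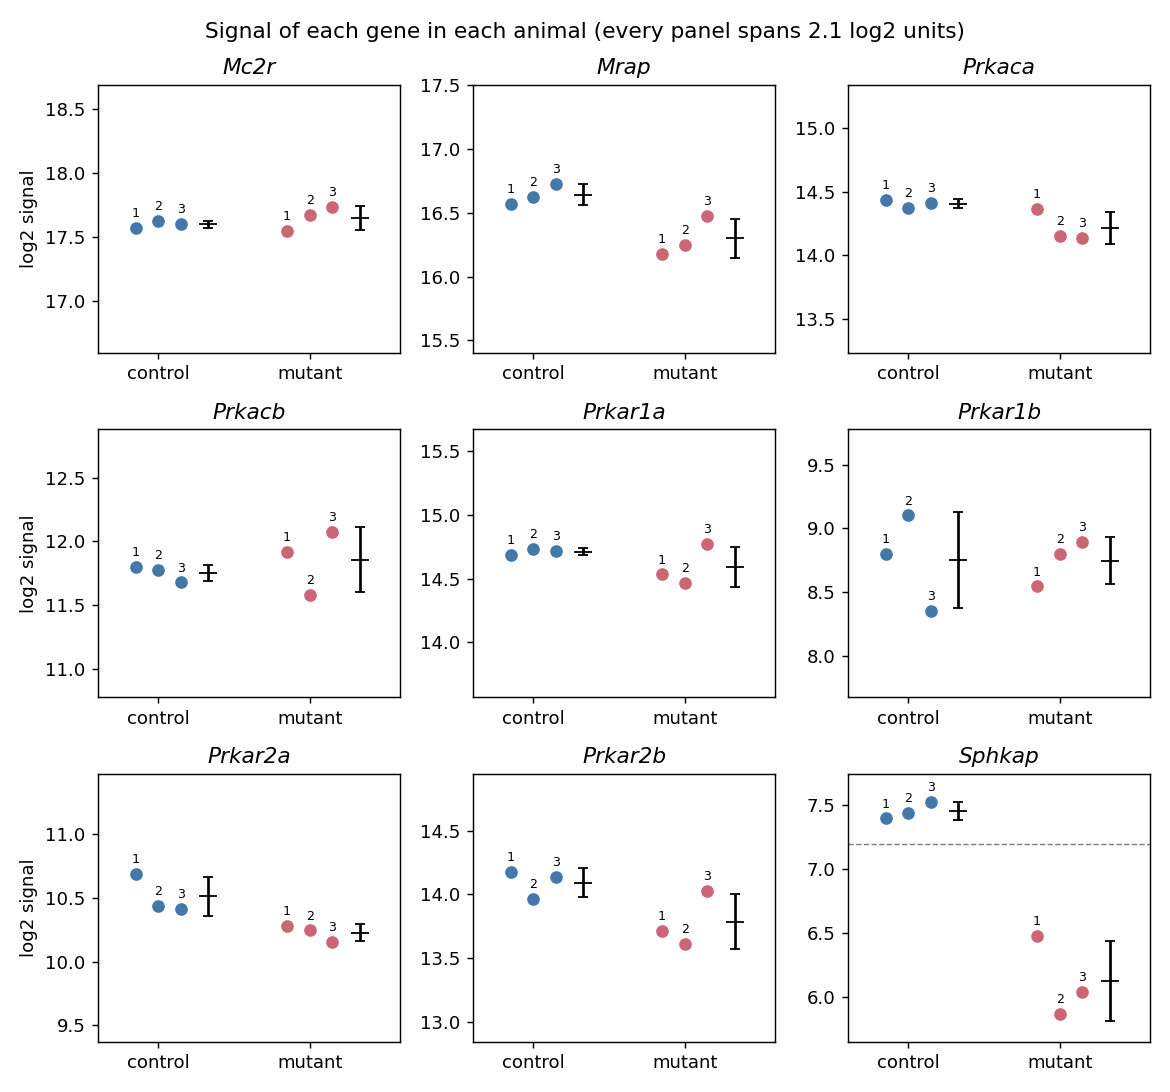
Log2 signal of the 9 genes in the 3 control (blue) and 3 mutant (red) animals, numbered as in the labels, with the mean and SD of each group as black marks. All panels span the same number of log2 units, and the dashed line in the Sphkap panel is the highest mean of the background probe sets, 7.20. Sphkap, Mrap, Prkaca and Prkar2a have no overlap between the groups, and the separation is widest for Sphkap.

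Mc2r, the ACTH receptor, measured 17.57, 17.62 and 17.60 in control animals against 17.55, 17.67 and 17.73 in mutant animals. Mutant animals lay on both sides of the controls. The change of 0.05 had an SE of 0.14 and a 95% interval of -0.26 to 0.37 (limma adjusted p = 0.934), so true differences anywhere in that interval could not be told from 0. The signal was near the top of the array's range, whose highest value was 19.2, and saturation, which would shrink a difference, was not assessed.

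Mrap, the accessory protein that carries the receptor to the cell surface, measured 16.57, 16.63 and 16.73 in control animals against 16.18, 16.25 and 16.47 in mutant animals. Every mutant was below every control, and the gap between the groups was 0.10 log2 units. The mean difference was -0.34 (SE 0.15, 95% interval -0.68 to -0.00069, or 1.27-fold lower; limma adjusted p = 0.481). In mice both Mc2r and Mrap are also active in fat cells, and fat cell markers differed strongly between animals. The mean of 10 fat cell markers reached 8.08, 9.46 and 10.57 in control animals against 11.81, 9.63 and 9.18 in mutant animals, with overlap, and 2 of the 10 were as dim as background in both groups. The part of fat in the Mc2r and Mrap signals was not tested. With the fat marker mean as a covariate the Mrap difference was -0.32 (limma adjusted p = 0.638).

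The catalytic subunit genes encode the kinase itself. Prkaca, the catalytic subunit found in most tissues, measured 14.44, 14.37 and 14.41 in control animals against 14.36, 14.15 and 14.14 in mutant animals. The groups were separated by 0.009 log2 units, with mutant 1 just under the lowest control. The difference was -0.19 (SE 0.14, 95% interval -0.51 to 0.14; limma adjusted p = 0.714). Prkacb, the second catalytic subunit, measured 11.80, 11.77 and 11.68 in control animals against 11.91, 11.58 and 12.07 in mutant animals. The mutants straddled the controls and spread more widely (SD 0.25 against 0.063), and the difference was 0.11 (SE 0.17, 95% interval -0.28 to 0.49; limma adjusted p = 0.872). Its sign rested on mutant 3, without which the difference was -0.0015.

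The type I regulatory subunits bind and inhibit the catalytic subunits in the holoenzyme that is largely soluble in the cell. Prkar1a, whose inactivating mutations in people cause Carney complex with adrenal overgrowth, measured 14.69, 14.73 and 14.72 in controls. In mutants it measured 14.53, 14.47 and 14.77, so mutants 1 and 2 were below all controls and mutant 3 above them. The difference was -0.12 (SE 0.15, 95% interval -0.46 to 0.22; limma adjusted p = 0.834).

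RefSeq promoter windows (GRCm38.p6) were searched for 7 of the 9 genes, with Mc2r left out beforehand and no window matched for Mrap. The 250 bases before each annotated start were searched on both strands. The motifs were the cyclic AMP response element TGACGTCA, its core TGACG, the steroidogenic factor 1 (Nr5a1) site AAGGTCA and the TEAD site GGAATG, the core lying within the full one. Of the 20 windows of the 7 genes, 1 held the full element, beside 1.55% of all 32851 windows, and 6 held the core, beside 17.8%. The Nr5a1 site was in 1 window, of Prkar1b, beside 4.08%, and the TEAD site in 3, of Prkar1a and Prkar1b, beside 12.6%. Windows of neighbouring starts of one gene overlap in part. The window with the full element lies before the fifth of 6 annotated starts of Prkar1a, and it is shown because it alone among the 20 has the full sequence that CREB factors, which PKA phosphorylates, are known to bind. Capitals mark a match to the core and, starting 49 bases before the start, the full element, in the window at chr11:109650699-109650948 on the plus strand.
Prkar1a: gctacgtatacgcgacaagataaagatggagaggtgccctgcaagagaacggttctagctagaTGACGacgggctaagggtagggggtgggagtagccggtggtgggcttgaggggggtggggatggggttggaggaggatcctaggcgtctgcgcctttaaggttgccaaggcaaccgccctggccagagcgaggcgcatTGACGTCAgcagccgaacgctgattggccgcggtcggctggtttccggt
A match describes these letters only, and the array gives 1 signal for Prkar1a whichever start is used.

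Prkar1b, the type I subunit best known from neurons, measured 8.80, 9.10 and 8.35 in control animals against 8.54, 8.80 and 8.90 in mutant animals. Control 2 was highest and control 3 lowest of all 6 animals, and the difference between groups was -0.0036 (SE 0.21, 95% interval -0.49 to 0.49; limma adjusted p = 0.997). Chromaffin cells of the medulla are neural crest derivatives, and their markers also differed between animals. The mean of 9 chromaffin markers came to 13.48, 14.23 and 13.19 in control animals against 13.34, 13.24 and 13.36 in mutant animals, and 0 of the 9 were as dim as background in both groups. Control 2 was highest and control 3 lowest in these markers as in Prkar1b, whereas among mutants the order differed, mutant 2 being lowest in the markers and between the others in Prkar1b. The part of medullary cells in the spread of Prkar1b was not tested. With the marker mean as a covariate the Prkar1b difference was 0.20 (limma adjusted p = 0.831).

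The type II regulatory subunits are mostly held by anchoring proteins. Prkar2a measured 10.69, 10.44 and 10.41 in control animals against 10.28, 10.25 and 10.16 in mutant animals. All mutants were below all controls, with a gap of 0.13 log2 units, and control 1 stood highest. The difference was -0.28 (SE 0.15, 95% interval -0.62 to 0.054; limma adjusted p = 0.556). Prkar2b, the subunit prominent in brain, fat and endocrine tissue, measured 14.18, 13.97 and 14.14 in control animals against 13.71, 13.61 and 14.03 in mutant animals. Mutants 1 and 2 were below the controls, and mutant 3 was between control 2 and control 3. The difference was -0.31 (SE 0.16, 95% interval -0.68 to 0.069; limma adjusted p = 0.576), and -0.27 with the fat marker mean as a covariate.

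Mutant 3 was the highest of the 3 mutants in 6 of the 9 genes, namely Mc2r, Mrap, Prkacb, Prkar1a, Prkar1b and Prkar2b. Fewer animals separate more easily, and the number of the 9 genes whose groups did not overlap was 4 to 6 with single animals left out. It was 6 without mutant 3, all lower in mutants, beside 27.8% of all probe sets in either direction and 14.3% that were lower. It was 5 without control 2 (beside 25.0% in either direction and 12.9% lower), mutant 1 (25.5% and 13%) or mutant 2 (26.6% and 14%). In the last pair of these cases 1 of the 5 was higher. It was 4, all lower, without control 1 (24.1% and 11.9%) or control 3 (30.2% and 16.4%). The SD was larger in mutants than in controls for 7 of the 9 genes, the exceptions being Prkar1b and Prkar2a. For this count and that of mutant 3, the share over all probe sets was not computed. Neither is shown to be particular to these genes.

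**Figure D2:**
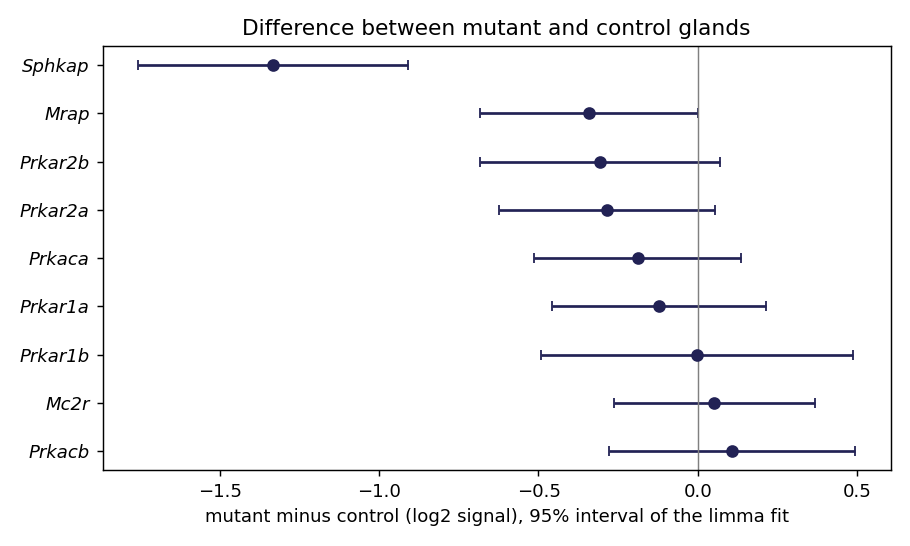
Mutant minus control on the log2 scale for the 9 genes, with points for the fitted difference and bars for the 95% interval of the limma fit over 6 arrays. The interval of Sphkap, -1.76 to -0.91, is far from 0, that of Mrap ends just below 0, and those of the other 7 genes include 0.

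Sphkap encodes an A-kinase anchoring protein that binds the type I regulatory subunits and was first found as a partner of sphingosine kinase 1. Its log2 signal was 7.40, 7.44 and 7.53 in control animals, and 6.47, 5.86 and 6.03 in mutant animals. All controls lay above 7.20, the highest mean of the 23 background probe sets, and all mutants below it, with a gap of 0.92 log2 units between the groups. That bound lies above the median signal of every array, the highest of which was 6.83, so a value below it does not show absence. The difference was -1.33 (SE 0.18, 95% interval -1.76 to -0.91), a measured 2.52-fold lower signal, and it ranked 29 by p among all 22206 probe sets. Since the mutant mean is within the background range, the fold may be too small. Only 0.437% of probe sets had a difference as far from 0 in either direction. The adjusted p of 0.0529 in limma lay on the edge of the threshold: it was 0.0170 with a trend and a robust prior, 0.0419 with a common median, 0.0450 with quantile normalization and 0.0489 without mutant 1. Without any other single animal it was 0.120 to 0.243, and with the chromaffin mean as a covariate 0.214. In each of these settings the difference stayed between -1.51 and -1.20.

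The window before the single annotated start of Sphkap, at chr1:83408201-83408450 on the minus strand, is shown because this gene differed most. It held 0 of the 4 motifs, so there are no capitals.
Sphkap: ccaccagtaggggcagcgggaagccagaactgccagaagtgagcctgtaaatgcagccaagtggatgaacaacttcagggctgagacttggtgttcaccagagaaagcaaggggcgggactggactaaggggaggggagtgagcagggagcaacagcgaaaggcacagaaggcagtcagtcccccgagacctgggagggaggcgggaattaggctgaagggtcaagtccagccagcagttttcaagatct
The absence of these letters in 250 bases says nothing of sites elsewhere.

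List means of markers of several cell types did not overlap between the groups, beside the separation of Sphkap, Mrap, Prkaca and Prkar2a, and their part in these differences was not tested. The mean of 7 zona glomerulosa markers was 13.16 to 13.41 in controls and 12.44 to 13.13 in mutants, with 6 of 7 lower. The mean of 7 fibroblast and capsule markers was 9.84 to 10.38 in controls and 10.52 to 11.34 in mutants, with 7 of 7 higher. Endothelial markers averaged 12.46 to 12.71 and 12.89 to 13.00, with 6 of 7 higher. Smooth muscle markers averaged 9.64 to 9.97 and 10.13 to 10.42, with 5 of 7 higher. Macrophage markers averaged at most 8.41 in controls and at least 8.56 in mutants, with 5 of 5 higher. Within the background range in both groups were 2 of the smooth muscle and 1 of the macrophage markers and 0 of the other 3 lists. Markers of steroid-producing cortex as a whole overlapped, at 18.23 to 18.28 in controls and 18.08 to 18.28 in mutants, with 7 of 8 lower. The fat and chromaffin marker means given above overlapped too, with 9 of 10 fat markers higher and 9 of 9 chromaffin markers lower.

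Genes with the profile most like each gene were sought among named probe sets above background, by the root mean square distance between log2 profiles centred on their own means over the 6 animals. With 9362 candidates and 6 animals, close matches arise in any case, and they are given as a description. Nearest to Sphkap were Pla2g2d, a secreted phospholipase A2, the choline kinase gene Chka, and Adam23, a disintegrin family member of the cell surface, at distances of 0.15, 0.19 and 0.21 log2 units, where the median candidate was at 0.71. Of these, Chka fell (difference -1.47, limma adjusted p = 0.0223), and Pla2g2d (-1.41) and Adam23 (-1.003) did not pass. Nearest to Mrap were Ywhag, a 14-3-3 protein gene, Arpc5, a subunit of the actin-nucleating Arp2/3 complex, and Tcaim, at 0.026, 0.030 and 0.043, with differences of -0.31, -0.34 and -0.37 and the median candidate at 0.27. Nearest to Mc2r were the mitochondrial ADP/ATP carrier Slc25a5, Laptm4a and Ppil4, at 0.022 to 0.028, all within 0.05 log2 units between the groups.

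**Figure D3:**
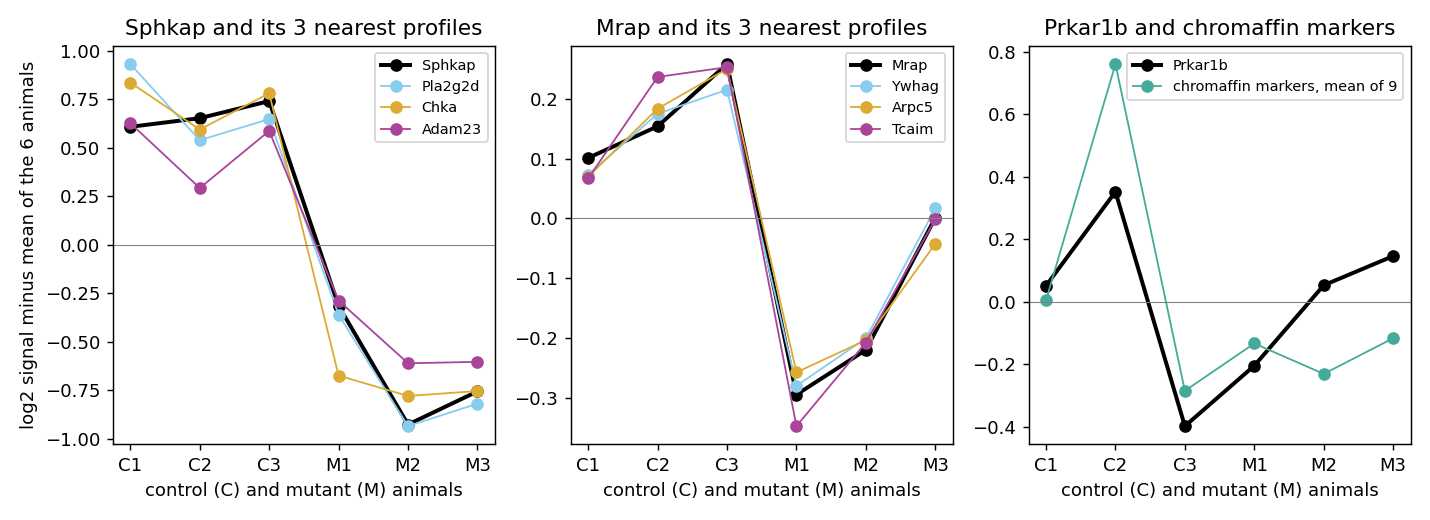
Log2 signal of each animal minus the mean over the 6 animals, for Sphkap and Mrap with their 3 nearest profiles and for Prkar1b with the mean of 9 chromaffin markers; C and M are control and mutant animals, and lines only join the points of one gene. Sphkap and its neighbours are lower in every mutant than in every control, mutant 3 lies above mutants 1 and 2 for Mrap, and control 2 is highest for both Prkar1b and the chromaffin markers, whose order among mutants differs.

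Around the 9 genes, 81 further genes of the pathway in 8 lists were examined. Of these, 0 rose and 0 fell by limma at an adjusted p of 0.05, and 0 passed with a trend and a robust prior. At an unadjusted p under 0.05, 13 of 81 (16.0%) passed, 7 higher and 6 lower, beside 10.4% of all probe sets. Their median change was 0.02.

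Among 6 G protein alpha subunits, which couple receptors to adenylyl cyclase, 0 passed and 4 were lower, with a median change of -0.21. Gnas, the stimulatory subunit that the ACTH receptor uses, measured 16.60, 16.58 and 16.35 in control animals against 16.15, 16.11 and 16.26 in mutant animals. All mutants were below all controls, and the difference was -0.34 (SE 0.15, limma adjusted p = 0.476). It was named after its values were seen, as the subunit between receptor and cyclase. The inhibitory subunit Gnai1 was also lower in every mutant (-0.55, SE 0.20, limma adjusted p = 0.394). Inhibitory subunits did not lie to one side, since Gnai2 was higher in every mutant (0.19, SE 0.15, limma adjusted p = 0.727). Gnai3 overlapped (-0.23, SE 0.16, limma adjusted p = 0.688). Gnal, a stimulatory subunit of olfactory and striatal neurons, had the smallest adjusted p of the 81 genes and was higher, at 5.38, 5.89 and 5.45 in control animals against 6.51, 6.67 and 6.64 in mutant animals (1.03, SE 0.18, limma adjusted p = 0.0872), with all values within the background range.

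Anchoring proteins other than Sphkap did not lie to one side. Of 25 measured, 0 passed, 15 were higher and 10 lower, with a median change of 0.03, and 8 were within the background range in both groups. Akap12, a scaffold for PKA and protein kinase C at the plasma membrane, measured 7.91, 7.93 and 7.82 in control animals against 8.76, 8.84 and 8.42 in mutant animals. Every mutant was above every control (0.79, SE 0.16, limma adjusted p = 0.145), the opposite direction to Sphkap. Akap5 also separated the groups upward (0.79, SE 0.20, limma adjusted p = 0.229) but within the background range. Sphkap had the largest difference in either direction of the 26 anchoring genes. It was chosen with earlier results of these data known, so this rank is a description only.

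Genes of sphingosine 1-phosphate synthesis, breakdown, export and reception were listed because sphingosine kinase 1 is the known partner of Sphkap. Of 8 genes 0 passed, 5 were higher and 3 lower, with a median change of 0.15. The partner gene Sphk1, named after its values were seen, was within the background range in both groups, with overlap (0.24, SE 0.18, limma adjusted p = 0.713). Sphk2, one of the pair of kinases that make sphingosine 1-phosphate, measured 11.03, 10.80 and 10.95 in control animals against 10.38, 10.25 and 10.26 in mutant animals. The groups were apart, and the difference was -0.63 (SE 0.14, limma adjusted p = 0.185). Spns2, which exports the lipid, was higher by 0.48 (SE 0.17, limma adjusted p = 0.399), within the background range.

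The inhibitors of the catalytic subunits and the kinase gene Prkx gave 0 of 4 past the test, with 3 of 4 higher and a median change of 0.25. The largest of these differences was that of the inhibitor gene Pkia, 0.34 (SE 0.26, limma adjusted p = 0.72), with overlapping groups, and that of Pkig was 0.22 (SE 0.17, limma adjusted p = 0.727). Other melanocortin receptors, Mrap2 and the ACTH precursor gene Pomc gave 0 of 6, all within the background range in both groups, with Mc4r at -0.12 (SE 0.17) and Mrap2 at 0.16 (SE 0.24). Cyclic AMP effectors other than PKA gave 0 of 7, of which 6 were within the background range in both groups, with the channel genes Hcn4 at -0.52 (SE 0.27) and Hcn2 at -0.33 (SE 0.21).

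Factors that PKA acts on, and genes that ACTH raises, also gave no call. Of 10 CREB family factors, coactivators and salt-inducible kinases 0 passed and 6 were higher, with a median change of 0.10. Creb1, the transcription factor that PKA phosphorylates, measured 9.96, 9.75 and 9.78 in control animals against 10.17, 10.07 and 10.31 in mutant animals (0.35, SE 0.15, limma adjusted p = 0.466), with no overlap, and its coactivator gene Crebbp had a difference of 0.24 (SE 0.15, limma adjusted p = 0.63). Of 15 genes known to be raised by ACTH or cyclic AMP in the cortex 0 passed, 12 were lower and 3 higher. Over all probe sets 52.0% were lower on average. The median change of the 15 genes was -0.15, against -0.01 over all probe sets. Star, Scarb1, Cyp11a1, Cyp21a1, Hsd3b1, Cyp11b1 and Fdx1 are also among the markers of steroid-producing cortex above, so the counts share genes. Their signals were near the top of the array's range, and saturation was not assessed. The means of all 15 genes overlapped, at 15.60 to 15.79 in controls and 15.29 to 15.83 in mutants. The transporter gene Abcb1b had the smallest p of this list (-0.40, SE 0.16, limma adjusted p = 0.446), and the kinase gene Sgk1 followed in the other direction (0.18, SE 0.15, limma adjusted p = 0.743).

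**Figure D4:**
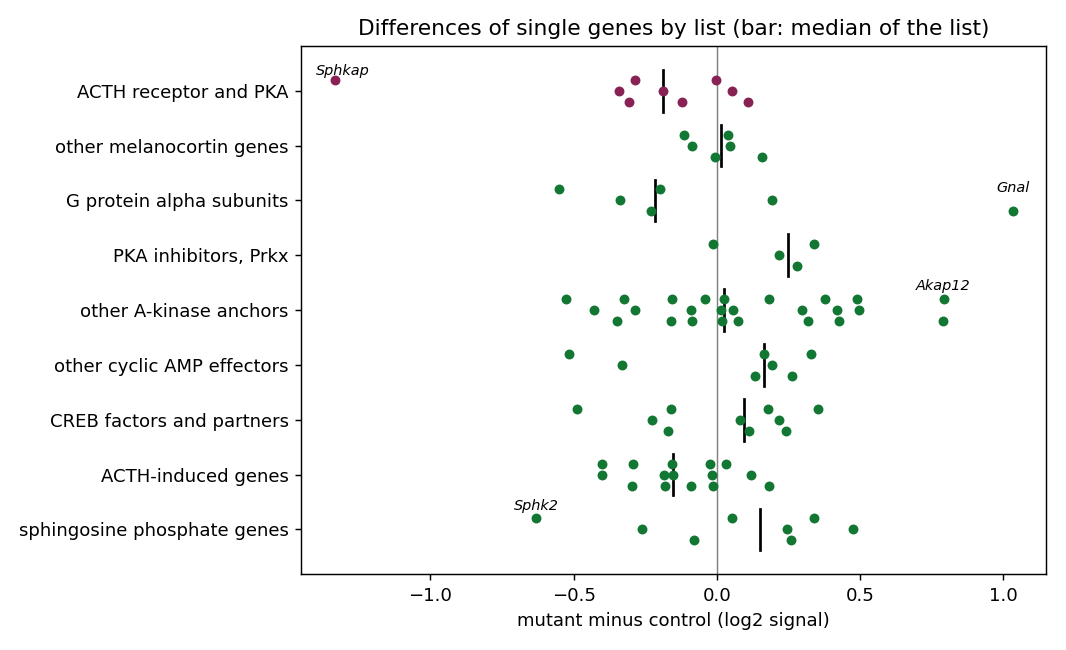
Mutant minus control on the log2 scale, 1 point per gene, for the 9 genes (purple) and the 8 further lists (green); black bars are list medians, and the vertical offset of points has no meaning. Sphkap at -1.33 is the point farthest from 0, Gnal at 1.03 is the highest, and the medians lie between -0.21 and 0.25.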

How the data were processed

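The deposited table holds a log2 signal for each probe set of an Affymetrix whole-transcript array and each animal, the scale being judged from the values. Per the submitters' processing notes, Transcriptome Analysis Console 4.0 was used; how background, summarisation and normalization were handled, and the genome build, is not stated in these sources. If arrays were forced to one distribution, a shift common to most genes would not show. After removal of 6640 control probe sets, 22206 were tested, of which the platform annotation names 19572 by 1 gene and 2634 by none. The range of the 23 background probe set means, 2.60 to 7.20, served as a guide to dim signals. The difference mutant minus control came from lmFit and eBayes (limma 3.58.1, R 4.3.3) over all 6 arrays without covariates; p-values are two-sided and Benjamini-Hochberg adjusted over all probe sets. SDs are between animals, SEs and intervals from the fit. The number of arrays limits precision.

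The members, lists and tests were chosen with earlier results of these data known. Named genes are the 9 members, the 2 genes of smallest unadjusted p in each of 8 pathway lists, and the 3 nearest profiles of Mc2r, Mrap and Sphkap. Gnas, Gnai2, Gnai3 and Sphk1 fall outside this rule and were named after their values were seen. The other 8 lists hold cell type markers. In a simulation of all 22206 probe sets at their measured levels and spreads, the procedure recovered 42 of 100 differences of 1 log2 unit and 89 of 100 of 2 log2 units, with 10 false calls. Noise was drawn independently for each probe set, and the number of planted differences was set in advance. The shares recovered therefore need not hold for the 9 genes in these data. Alternatives were other normalizations, filters, variance models and weights, a replicate block, covariates for fat, chromaffin and intron control signal, and each animal left out. The count of genes whose groups do not overlap was recomputed after seeing the data.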

Additional observations from a re-analysis of the deposited data

How the results depend on the processing

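No difference of the 9 genes other than that of Sphkap passed an adjusted p of 0.05 in limma under any alternative run. Sphkap passed in 5 of the 10 alternatives other than leaving an animal out. Among these were quantile normalization (-1.35), a common median (-1.36) and array weights (-1.34). The value was unchanged at -1.33 in the other pair, genes of 1 symbol only and a trend and robust prior. It did not pass with the covariates for fat (limma adjusted p = 0.0755), intron control (0.0868) or chromaffin signal (0.214). Sphkap was not tested without dim probe sets, since its mean lies below the median probe set. With single animals left out it ranged from -1.51 to -1.20. The near-zero difference of Prkar1b turned positive with the covariates for fat (0.12), chromaffin (0.20) and intron control signal (0.065), and ranged from -0.20 to 0.17 with single animals left out, where that of Prkacb ranged from -0.0015 to 0.25. The other 6 genes kept their direction in every alternative. Averaging the probe sets of a gene changed nothing, since each of the 9 has 1. The count of 16 probe sets past the threshold became 38 with quantile normalization, 32 with a common median, 92 without dim probe sets, 41 with genes of 1 symbol only, 175 with a trend and robust prior, 48 with array weights, 108 at a threshold of 0.1, 2 with the fat, 1 with the chromaffin and 8 with the intron covariate, and 1 to 15 with single animals left out (1 without control 1, 2 or 3, and 6 without mutant 2); the cause was not tested. Of the 81 pathway genes, 13 were below an unadjusted p of 0.05 and 0 passed with either normalization. Groups share replicate numbers, but deviations of same-numbered animals correlated at -0.090, 0.082 and -0.070, and not every animal correlated best with its own number, so the numbers were not taken to pair them; with a replicate block the count was 1 and Sphkap had an adjusted p of 0.144.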
